A study of Mus musculus with 12 samples.

Results

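The genes described here are 35 genes of macroautophagy and of the lysosome, listed by name with earlier results of these data known. They include the kinases that start autophagy, the proteins that build and close the autophagosome, and the receptors that load it. The transcription factor Tfeb and 5 proteins of the lysosome complete the list. All 35 were found in each of the tables, which hold 22273 entries in gastrocnemius and 22252 each in liver and gonadal white adipose tissue (WAT). Each of the 35 was above 0 in every library, with a lowest count of 51.5.

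The RNA came from male C57BL/6J mice of 2 genotypes. GRf/f mice carry Nr3c1, the gene of the glucocorticoid receptor (GR), with exon 3 flanked by loxP sites and served as controls. GRmKO mice carry the same floxed alleles together with Cre driven by the Acta1 promoter, which is active in skeletal myofibres, so liver and WAT were not targeted and other cell types of muscle keep the receptor. From the age of 8 weeks all mice drank water with 1% ethanol, either alone (vehicle) or with corticosterone (CORT) at 100 μg/mL, for 4 weeks. Each of the 12 libraries, 4 per tissue, was made from RNA pooled over 3 mice, so every genotype and treatment is represented by 1 library in a tissue. No difference below could therefore be tested against animal-to-animal spread, no p-value is given, and a difference between genotypes in the response to CORT is a description.

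In macroautophagy, the ULK kinase complex and the class III PI3-kinase complex start a membrane that WIPI proteins and ATG9A help to grow. A conjugation system then attaches ATG8 proteins (the LC3 and GABARAP families) to that membrane, cargo receptors such as p62 and NBR1 hold cargo to it, and cathepsins degrade the content after fusion with a lysosome, whose membrane is lined by LAMP proteins. In skeletal muscle the pathway is known for protein and mitochondrial turnover during fasting, denervation and glucocorticoid excess, and in adipose tissue lysosomes are also abundant in macrophages.

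Levels are given in CPM, the deposited estimated count scaled to the library total, which lay between 19394572 and 20940660. Changes are log2 ratios with 0.5 CPM added to both sides, and a gene was called higher or lower when the ratio reached 1.5-fold (0.585 on the log2 scale). Intervals in brackets are 95% exact intervals of the ratio from the counts, which cover counting error only. The genotype labels were met by the data in gastrocnemius: Nr3c1 was at 113 and 90.4 CPM in the GRf/f vehicle and CORT libraries and at 46.4 and 35.5 CPM in the GRmKO libraries. Fkbp5, a classical GR target, was 2.51 higher with CORT on the log2 scale in GRf/f gastrocnemius and 0.52 lower in GRmKO gastrocnemius. The summed CPM of 8 markers of each tissue's main cell type was highest in that tissue: in gastrocnemius the myofibre sum was 93740 to 134900, in liver the hepatocyte sum was 85840 to 142800, and in WAT the adipocyte sum was 26270 to 32660.

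Over the 12 comparisons the 35 genes gave 420 changes, of which 32 reached 1.5-fold and 3 reached 2-fold. Over all genes tested, 20.3% of changes reached 1.5-fold and 7.0% reached 2-fold. In all, 19 genes passed 1.5-fold at least once: 11 in gastrocnemius, 4 in liver and 10 in WAT. Among the 11124 genes tested in all tissues, 71.5% did so. The other 16 stayed within 1.5-fold in every comparison, among them Ulk1, the kinase that starts autophagy, Becn1 and Pik3c3 of the PI3-kinase complex, Atg5, Map1lc3b, and the LAMP genes Lamp1 and Lamp2. The counting interval lay past 0 in 271 of the 420 changes, and spread between animals is not part of that interval.

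**Figure D1:**
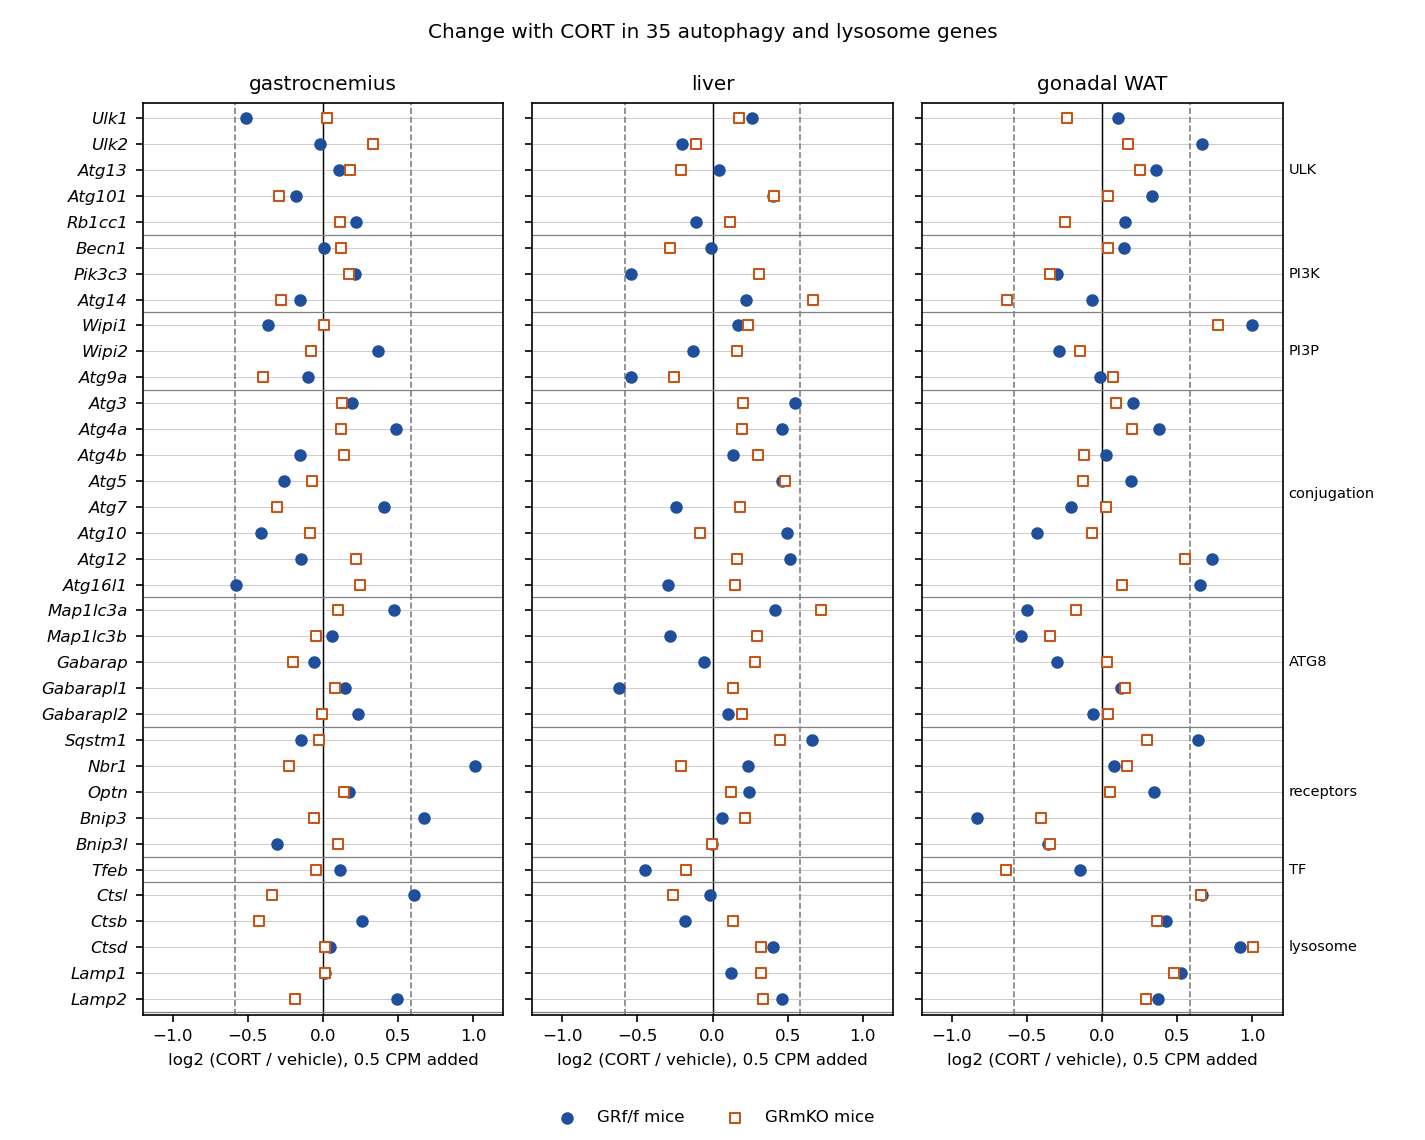
Change with CORT of the 35 genes, by role, in gastrocnemius, liver and gonadal WAT: each point is the log2 ratio of 1 CORT library over 1 vehicle library in GRf/f mice (filled circles) or GRmKO mice (open squares), and dashed lines mark 1.5-fold. In gastrocnemius 3 filled circles and no square lie past the upper line, whereas in WAT Ctsd, Wipi1 and Ctsl lie past it in both genotypes.

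In gastrocnemius of GRf/f mice, CORT was accompanied by higher levels of the cargo receptors Nbr1 and Bnip3 and of the lysosomal protease Ctsl, and by no called decrease among the 35 genes. With nothing added to the CPM, Atg16l1 was also called lower, and with median-of-ratios scaling 5 members were called higher. In GRmKO gastrocnemius none of the 35 was called in either direction. Beside these counts, 8.36% of the 13543 genes tested in GRf/f gastrocnemius were called higher and 14.2% lower, and in GRmKO gastrocnemius 4.32% were called higher and 14.6% lower. The 3 genes called higher in GRf/f mice are 8.57% of the members, close to the share among all genes. The median change of the 35 genes was 0.06 against -0.09 over all genes in GRf/f mice, and 0.01 against -0.10 in GRmKO mice. Of 7 adipocyte markers that could be tested in gastrocnemius, 6 were called higher with CORT in GRf/f mice (median 1.61) and 5 in GRmKO mice (median 1.01). Cfd was called lower in both, from 53.4 to 22.6 and from 48.8 to 29.6 CPM. The summed levels of the adipocyte markers were 267 and 667 CPM in the GRf/f vehicle and CORT libraries and 367 and 524.8 CPM in the GRmKO libraries. Their part in the member changes was not tested. In bulk tissue, a change in the number of cells of a type and a change in RNA per cell cannot be told apart.

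Nbr1 encodes a receptor that binds ubiquitinated cargo and LC3. Its level was 24.2 CPM in the GRf/f vehicle library, 49.3 in GRf/f CORT, 35.7 in GRmKO vehicle and 30.6 in GRmKO CORT. The GRf/f CORT library was thus the highest and its vehicle counterpart the lowest, with both GRmKO libraries between them. The CORT change was 1.01 [0.87, 1.19] in GRf/f mice and -0.22 in GRmKO mice. The gene lies at chr11:101552149-101581951 on the plus strand (GRCm38, GENCODE M21). Each deposited entry carries 1 transcript identifier, and for Nbr1 the one kept in gastrocnemius, ENSMUST00000123558, is annotated as a target of nonsense-mediated decay, whereas liver and WAT carry the protein-coding ENSMUST00000107213. The coding sequences of both are the same for their first 1755 bases and then part. The 30 coding bases around that point are shown because they tell the transcripts apart, with capitals marking the bases after it:
Nbr1 in gastrocnemius: aacacccctgtggatATGACTCCCTGCATG
Nbr1 in liver and WAT: aacacccctgtggatTCCACTGTATCAGCA
Whether the values of an entry stand for its transcript or for the whole gene is not stated in the files. The kept transcript differs between tissues for 5 members (Atg13, Atg16l1, Nbr1, Bnip3l and Lamp2), which points to separate entries per transcript. The Nbr1 change in muscle may thus concern this transcript rather than the gene, and so may those of Atg16l1, Atg13 and Bnip3l below. Nbr1 levels are not compared between tissues. The entry of Becn1 carries a transcript annotated in the same way in all tissues.

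Bnip3 encodes a receptor on the outer mitochondrial membrane that takes part in mitophagy. It was at 172 CPM in GRf/f vehicle and 274 in GRf/f CORT, and at 222 and 213 in the GRmKO vehicle and CORT libraries, a CORT change of 0.67 [0.61, 0.74] and -0.06. Its relative Bnip3l did not follow: 63.5 and 51.4 CPM in GRf/f mice and 75.1 and 80.6 in GRmKO mice. Ctsl, a lysosomal cysteine protease long listed among genes that rise in atrophying muscle, was at 60.7 CPM in GRf/f vehicle, 92.5 in GRf/f CORT, 120 in GRmKO vehicle and 94.7 in GRmKO CORT. Its CORT change was 0.60 [0.50, 0.71] in GRf/f mice and -0.34 in GRmKO mice, where the vehicle library was the highest of the 4.

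Ctsl was the member just past 1.5-fold in GRf/f gastrocnemius, and Atg16l1, at -0.58, was just short of it. Next to them were Ulk1, at -0.51 with 130 CPM in vehicle and 90.8 in CORT, Lamp2 at 0.49, Atg4a at 0.49 and Map1lc3a at 0.47. Of the roles, all 5 lysosome genes were above 0 in GRf/f mice with a median of 0.26, and 2 of 5 were above 0 in GRmKO mice with a median of -0.19. With CORT the summed level of 10 macrophage markers was level in GRf/f gastrocnemius, at 160 and 159 CPM, and went from 521.1 to 203 CPM in GRmKO gastrocnemius, where 8 of the 9 tested were called lower. Their part was not tested. The ATG8 genes had medians of 0.15 and -0.01 and the 8 conjugation genes medians of -0.15 and 0.12. Across the 35 genes, 18 had the same sign of CORT change in both genotypes, and the median size of the change was 0.21 in GRf/f mice and 0.12 in GRmKO mice. These 2 sets of changes share no library.

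**Figure D2:**
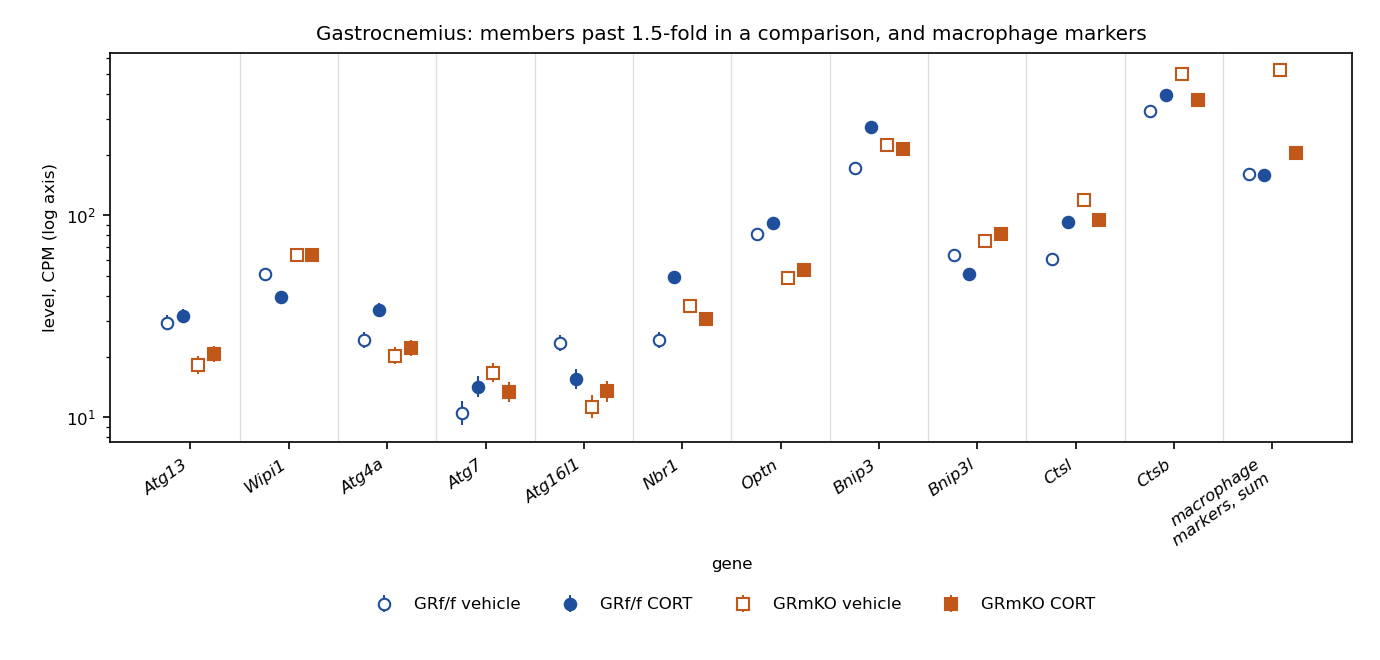
Levels in gastrocnemius of the 11 members that passed 1.5-fold in at least 1 comparison, and the summed level of 10 macrophage markers, in CPM on a log axis; each point is 1 library and bars on the genes are 95% Wilson counting intervals. Nbr1 and Bnip3 are highest in GRf/f CORT, Optn and Atg13 are lower in both GRmKO libraries, and Ctsl, Ctsb and the macrophage markers are highest in GRmKO vehicle.

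Without CORT, GRmKO gastrocnemius had higher levels than GRf/f gastrocnemius of Ctsl, Atg7 and Ctsb, and lower levels of Atg16l1, Optn and Atg13. Among all genes 14.7% were called higher and 9.33% lower in this comparison, against 8.57% of the members in each direction. The largest difference was in Atg16l1, which directs the conjugation of ATG8 proteins: 23.4 CPM in GRf/f vehicle, 15.5 in GRf/f CORT, 11.3 in GRmKO vehicle and 13.5 in GRmKO CORT, a genotype difference under vehicle of -1.02 [-1.28, -0.81]. GRf/f vehicle stood above the other libraries. Atg16l1 carries another transcript in each tissue. The one kept in muscle holds 105 coding bases that the liver transcript lacks, and the coding sequence is shown from 15 bases before the point where they part, with capitals after it:
Atg16l1 in gastrocnemius: cagcagagcagctacTAAGCGACTCTCGCA
Atg16l1 in liver: cagcagagcagctacGAGACGCTCTGTCTC

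Optn, which encodes the cargo receptor optineurin, was lower in GRmKO mice under both drinks: 81.0 and 91.6 CPM in the GRf/f vehicle and CORT libraries and 48.8 and 53.8 in the GRmKO libraries. Atg13, a subunit of the ULK complex, likewise stood at 29.5 and 31.8 CPM in GRf/f mice and at 18.1 and 20.6 in GRmKO mice. For these genes the ranges of the 2 genotypes did not overlap, with differences of -0.73 under vehicle and -0.76 under CORT for Optn and of -0.69 and -0.61 for Atg13. They were the 2 of 35 members called in the same direction in both genotype comparisons, and 9.67% of all genes were so called. In all, 10 members had both GRmKO libraries above both GRf/f libraries and 13 had both below, against 26.0% and 22.2% of all genes.

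Ctsb, a lysosomal cysteine protease, was at 327 CPM in GRf/f vehicle, 392 in GRf/f CORT, 501 in GRmKO vehicle and 373 in GRmKO CORT. Atg7, the E1-like enzyme of the conjugation system, was at 10.6, 14.2, 16.6 and 13.4 CPM in the same order. Both were highest in GRmKO vehicle, by 0.61 and 0.63 over GRf/f vehicle, as was Ctsl, by 0.97 [0.88, 1.08]. Under TMM scaling, edgeR's library scaling, Atg7 was at 0.55 and Ctsb at 0.54, short of the threshold. Ctsd and Lamp1, in contrast, were nearly level over the 4 libraries, at 639 to 687 and 489 to 510 CPM. The GRmKO vehicle library also had the highest summed level of 10 macrophage markers, 521.1 CPM against 159 to 203 in the other libraries. Of the 9 markers that could be tested 8 were called higher than in GRf/f vehicle, with a median of 1.47, and Itgam was at 0 in GRf/f vehicle and GRmKO CORT. The same library had the lowest myofibre sum, 93740 against 118000 to 134900 CPM. Of the 8 myofibre markers, 2 were called lower than in GRf/f vehicle, such as Myh4 (35760 to 15390 CPM), and 1 higher, Mylpf (2513 to 5105 CPM). Hepatocyte markers were called higher for 6 of the 7 tested, with sums of 45.7 CPM in GRf/f and 129 in GRmKO vehicle. All 4 markers of red blood cells were called higher, with sums of 516.8 and 926.2 CPM. The part of any of these cell types in the differences was not tested.

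Under CORT, 2 members were called higher and 4 lower in GRmKO gastrocnemius, where 14.2% of all genes were called higher and 13.6% lower. These values share their GRf/f CORT library with the CORT change in GRf/f mice and are set beside it, not added to it. Wipi1, which binds PI3P on the growing membrane, was at 51.0 CPM in GRf/f vehicle, 39.5 in GRf/f CORT, 63.5 in GRmKO vehicle and 63.8 in GRmKO CORT, a difference of 0.69 under CORT. Bnip3l differed by 0.64 under CORT. Atg4a, one of the proteases that prime ATG8 proteins, was at 24.2, 34.2, 20.2 and 22.0 CPM, with GRf/f CORT above the rest and a difference of -0.63, and Nbr1 differed by -0.68. The macrophage sums of these CORT libraries were 159 and 203 CPM. Summed hepatocyte markers were 113 CPM in GRf/f CORT and 348 in GRmKO CORT. Cyp2e1, which was also high in WAT, made up 103 and 91.1 CPM of these sums, and Alb 7.47 and 198 CPM. Of the 7 hepatocyte markers tested, 6 were called higher, with a median of 3.90. Summed markers of red blood cells were 527.9 and 1709 CPM. The part of either cell type was not tested.

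**Figure D3:**
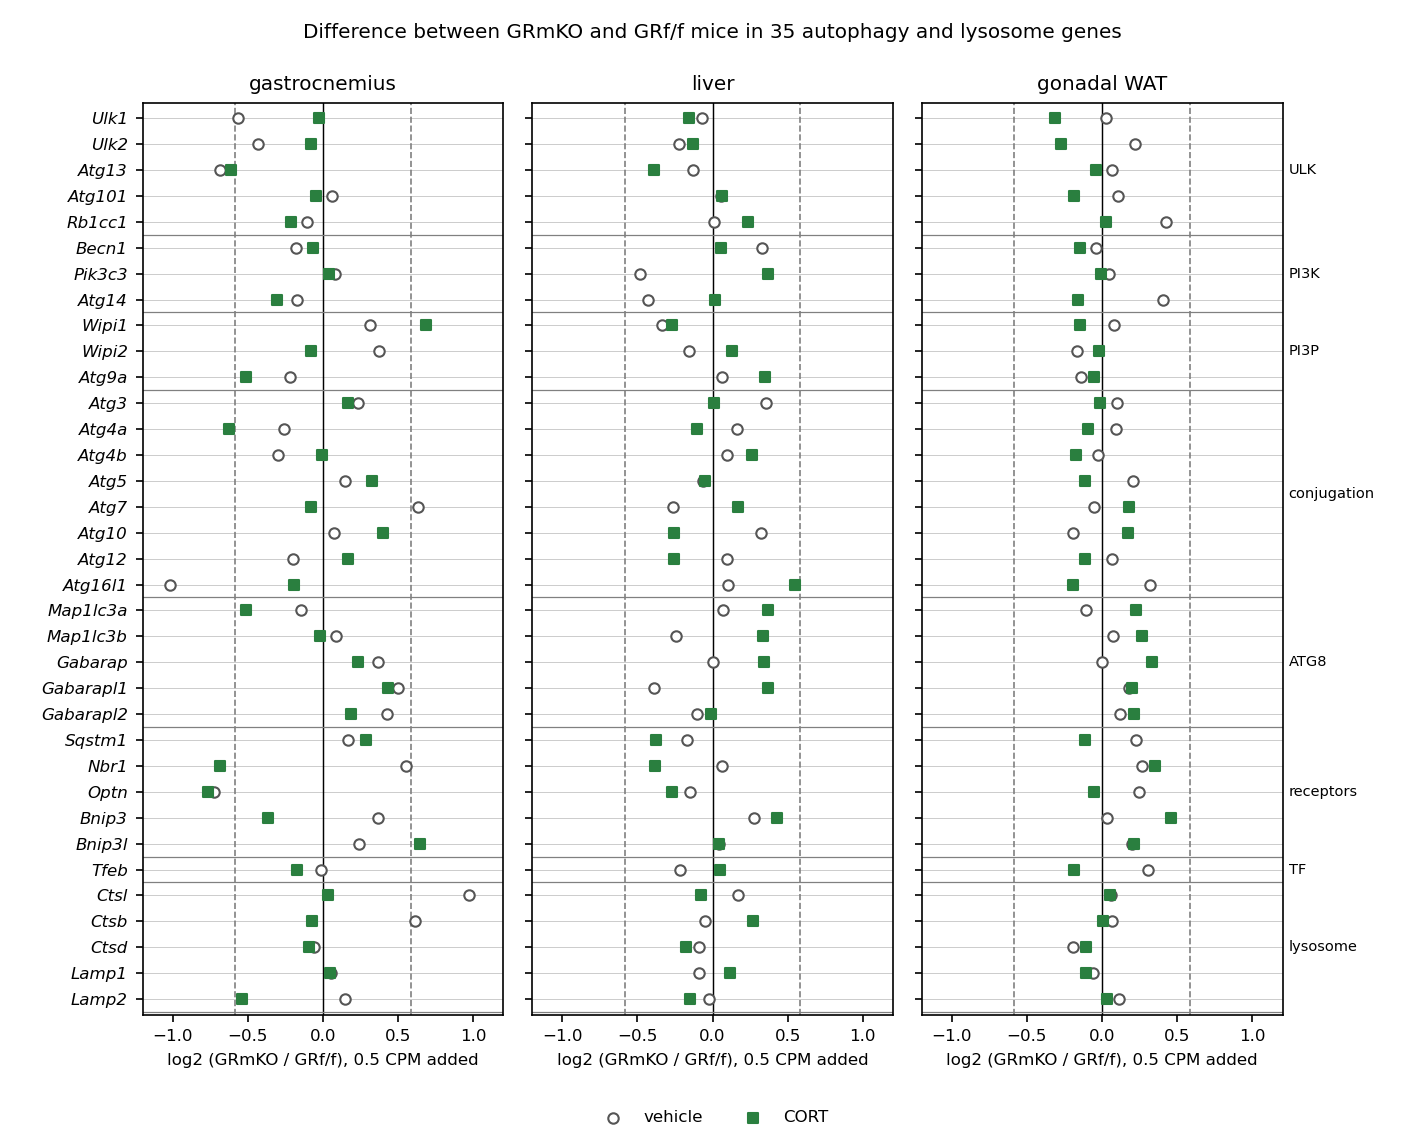
Difference between genotypes of the 35 genes, by role, in the 3 tissues: each point is the log2 ratio of 1 GRmKO library over 1 GRf/f library under vehicle (open circles) or CORT (filled squares), and dashed lines mark 1.5-fold. Points lie past the dashed lines in gastrocnemius, such as Atg16l1 at -1.02 and Ctsl at 0.97 under vehicle, and none does in liver or WAT.

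In liver and WAT, which Cre did not target, no member was called between genotypes under either drink. In liver, 5.78% of the 12485 genes tested were called higher and 4.13% lower in GRmKO mice under vehicle, and 9.27% and 7.26% under CORT. In WAT, 4.68% of the 14218 genes tested were called higher and 4.99% lower under vehicle, and 5.17% and 5.45% under CORT. The members nearest to the threshold were Pik3c3 at -0.48 and Atg16l1 at 0.55 in liver, under vehicle and CORT, and Rb1cc1 at 0.43 and Bnip3 at 0.46 in WAT.

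In liver, CORT went with a higher level of Sqstm1 and a lower level of Gabarapl1 in GRf/f mice, and with higher levels of Map1lc3a and Atg14 in GRmKO mice. Few members were called: 1 of 35 higher and 1 lower in GRf/f liver, where 14.0% of all genes were called higher and 13.2% lower, and 2 higher and none lower in GRmKO liver, where the shares were 9.44% and 8.31%. The median change of the members was 0.10 in GRf/f mice and 0.19 in GRmKO mice, against 0.01 and 0.05 over all genes. Of the 35, 23 had the same sign in both genotypes.

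Sqstm1 encodes p62, a cargo receptor that is itself degraded by autophagy. It was at 243 CPM in GRf/f vehicle, 383 in GRf/f CORT, 216 in GRmKO vehicle and 295 in GRmKO CORT, so both CORT libraries were above both vehicle libraries, and the changes were 0.66 [0.61, 0.71] and 0.45. Gabarapl1, an ATG8 family member, was at 347 and 226 CPM in GRf/f mice and at 266 and 292 in GRmKO mice. Its CORT change was -0.62 in GRf/f and 0.14 in GRmKO mice, a change of opposite sign. Map1lc3a, which encodes LC3A, was at 30.2 and 40.6 CPM in GRf/f mice and 31.7 and 52.6 in GRmKO mice, with changes of 0.42 and 0.72 [0.59, 0.87]. Atg14, the subunit that brings the PI3-kinase complex to the forming autophagosome, was at 15.4 and 18.1 CPM and at 11.3 and 18.3 CPM, with changes of 0.23 and 0.67 [0.46, 0.94].

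The remaining members among the 5 largest liver changes of either genotype stayed within 1.5-fold. Atg3, the E2-like enzyme of conjugation, went from 51.3 to 75.4 CPM in GRf/f mice and from 65.7 to 75.9 in GRmKO mice. Atg5, which forms the conjugate with ATG12, went from 38.9 to 53.8 and from 37.1 to 52.0 CPM, and Atg101, of the ULK complex, from 12.4 to 16.5 and from 12.9 to 17.2 CPM. These last changes were nearly the same size in both genotypes, 0.47 and 0.48 for Atg5 and 0.41 and 0.41 for Atg101. Atg9a, the transmembrane protein that delivers lipid to the growing membrane, went from 45.1 to 30.8 and from 47.1 to 39.4 CPM, and Pik3c3, the catalytic subunit of the PI3-kinase complex, from 16.8 to 11.4 and from 11.9 to 14.8 CPM. Of the 8 conjugation genes 6 were above 0 in GRf/f mice and 7 in GRmKO mice, and the 5 lysosome genes had medians of 0.12 and 0.32. The summed macrophage markers of liver were 209 CPM in GRf/f vehicle, 72.0 in GRf/f CORT, 169 in GRmKO vehicle and 109 in GRmKO CORT. Summed markers of red blood cells were 729, 327, 481 and 781 CPM in the same order. The part of either in the liver values was not tested.

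In gonadal WAT, CORT went with higher levels of the proteases Ctsd and Ctsl and of Wipi1 in both genotypes. In GRf/f WAT 7 members were called higher (Wipi1, Ctsd, Atg12, Ulk2, Ctsl, Atg16l1 and Sqstm1) and 1 lower (Bnip3), and in GRmKO WAT 3 were called higher (Ctsd, Wipi1 and Ctsl) and 2 lower (Tfeb and Atg14). In GRf/f WAT 7 of 35 members were thus higher and 2.86% of them lower, where 13.4% of all genes were called higher and 19.2% lower. In GRmKO WAT 8.57% of the members were higher and 5.71% lower, where the shares of all genes were 8.7% and 16.4%. The median change of the members was 0.15 in GRf/f mice and 0.04 in GRmKO mice, against -0.07 and -0.12 over all genes. Of the 35, 27 had the same sign in both genotypes, and the median size of the change was 0.35 in GRf/f and 0.20 in GRmKO mice.

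Ctsd encodes the aspartic protease cathepsin D. Its level was 1435 CPM in GRf/f vehicle, 2708 in GRf/f CORT, 1252 in GRmKO vehicle and 2511 in GRmKO CORT. Both CORT libraries stood well above both vehicle libraries, and the changes were 0.92 [0.90, 0.94] and 1.00 [0.98, 1.03]. Ctsl followed the same order, with 352 and 557 CPM in GRf/f mice and 366 and 579 in GRmKO mice, changes of 0.66 in each genotype. Ctsb went from 2074 to 2785 and from 2167 to 2791 CPM, Lamp1 from 742 to 1066 and from 711 to 989, and Lamp2 from 189 to 245 and from 204 to 250. These 3 stayed within 1.5-fold, with changes of 0.29 to 0.52, and their CORT libraries did not overlap their vehicle libraries either. Such a gap, with CORT higher, was seen in 15 members and in 24.2% of all genes, and with CORT lower in 9 members and in 39.9% of all genes. Thus all 5 lysosome genes were above 0 in both genotypes, with medians of 0.52 and 0.48.

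**Figure D4:**
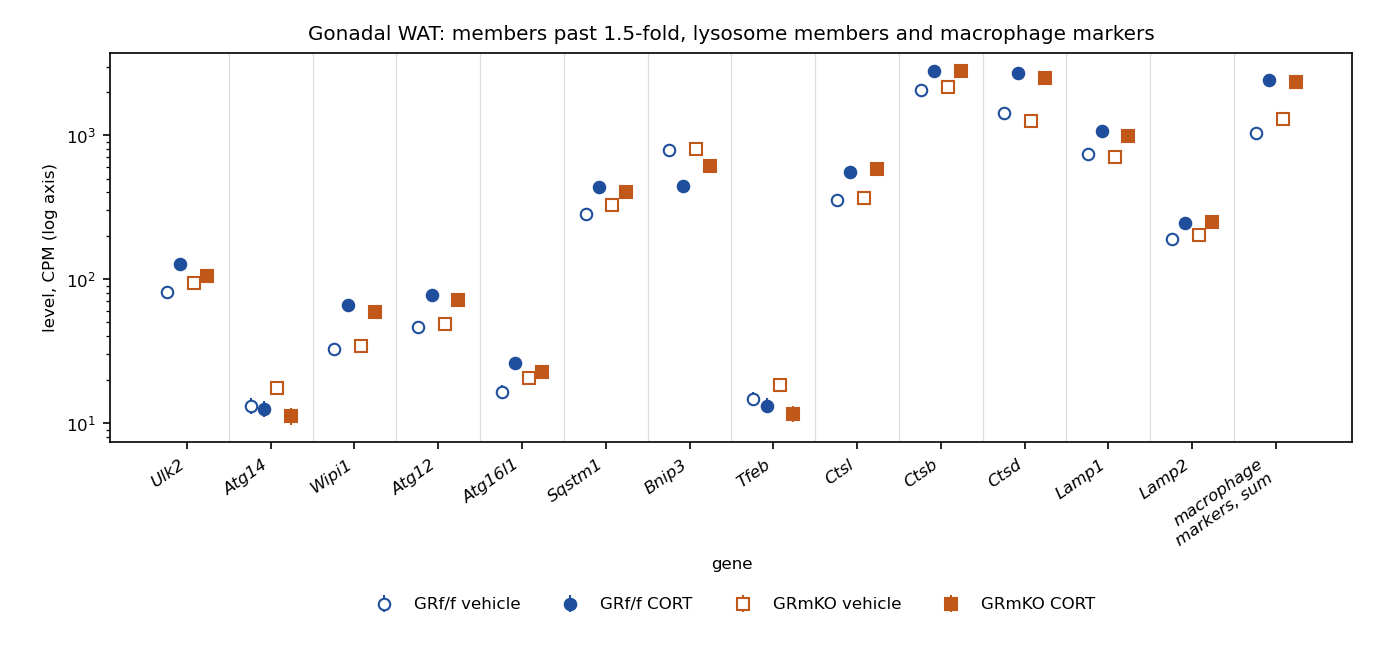
Levels in gonadal WAT of the 10 members that passed 1.5-fold in a comparison, the lysosome members, and the summed level of 10 macrophage markers, in CPM on a log axis; each point is 1 library and bars on the genes are 95% Wilson counting intervals. For every lysosome gene, Wipi1 and the macrophage markers both CORT libraries lie above both vehicle libraries, and for Bnip3 they lie below.

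The macrophage markers moved with the lysosome genes in WAT. Their summed level was 1033 CPM in GRf/f vehicle, 2421 in GRf/f CORT, 1290 in GRmKO vehicle and 2349 in GRmKO CORT. Of the 9 that could be tested, 8 were called higher with CORT in GRf/f mice (median 1.09) and 7 in GRmKO mice (median 0.71), and Itgam was at 0 in GRf/f vehicle. Fcgr1 was the exception, at 4.31 and 3.97 CPM in GRf/f mice. The summed adipocyte markers were 30770 and 26470 CPM in GRf/f mice and 32660 and 26270 in GRmKO mice. These 8 markers did not move together. In GRf/f mice 1 was called higher and 3 lower, with Lep from 722 to 5587 CPM and Cfd from 5933 to 383. In GRmKO mice 1 was called higher and 2 lower. Summed markers of red blood cells went from 2992 to 1474 CPM in GRf/f mice and from 3090 to 3863 in GRmKO mice. The part of macrophage number, or of the other cell types, in the lysosome changes was not tested.

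Wipi1 was at 32.6 CPM in GRf/f vehicle, 65.6 in GRf/f CORT, 34.5 in GRmKO vehicle and 59.1 in GRmKO CORT, with changes of 1.00 [0.87, 1.15] and 0.77 [0.64, 0.92]. Atg12, the ubiquitin-like protein joined to ATG5, was at 46.2 and 77.0 CPM in GRf/f mice and at 48.4 and 71.2 in GRmKO mice, changes of 0.73 and 0.55. In both genes, as in the cathepsins, the CORT libraries of both genotypes were the highest. Ulk2, a kinase related to Ulk1, was at 80.7 and 128 CPM in GRf/f mice and at 93.9 and 106 in GRmKO mice, changes of 0.67 and 0.17. Atg16l1 went from 16.5 to 26.1 and from 20.7 to 22.7 CPM, and Sqstm1 from 281 to 439 and from 329 to 405.

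Bnip3 was lower with CORT in WAT: 787 CPM in GRf/f vehicle, 442 in GRf/f CORT, 805 in GRmKO vehicle and 608 in GRmKO CORT, with changes of -0.83 [-0.87, -0.80] and -0.40. Its change in GRf/f gastrocnemius, 0.67, had the opposite sign. Tfeb, a transcription factor of lysosomal and autophagy genes, was at 14.7 and 13.2 CPM in GRf/f mice and at 18.2 and 11.5 in GRmKO mice, changes of -0.15 and -0.64 [-0.90, -0.42]. Atg14 was at 13.1 and 12.5 CPM in GRf/f mice and at 17.5 and 11.1 in GRmKO mice, changes of -0.07 and -0.63 [-0.90, -0.41]. With TMM scaling, which raised all changes of this comparison by 0.12, these GRmKO changes were -0.52 and -0.51 and no longer reached 1.5-fold. Of the ATG8 genes, Map1lc3b was at -0.54 and Map1lc3a at -0.50 in GRf/f mice and at -0.35 and -0.17 in GRmKO mice, all within 1.5-fold.

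Sequences before the start sites of 4 members, Ctsd and Lamp1 of the lysosome, the conjugation enzyme Atg3 and the receptor Bnip3, are shown because TFEB is known to act through palindromic E-boxes (CACGTG), in a wider form called CLEAR (TCACGTGA), close to such starts. RefSeq promoters on GRCm38.p6, of which the 250 bases before the start were searched on both strands, were matched for 27 of the 35 genes. CLEAR was found for 2 of the 27, Atg3 and Ctsd, against 0.907% of 27025 genes. CACGTG, which lies inside every CLEAR match and was added after the CLEAR result was seen, was found for 7 of the 27 (Atg3, Atg5, Atg7, Bnip3, Ctsd, Ctsl and Lamp1), against 6.86% of genes. Member windows were richer in G and C, with a median of 58.8% against 52.4%. The sequences read 5′ to 3′ on the strand of the gene, with the motif in capitals. The Ctsd sequence (chr7:142387908-142387937, minus strand) has its motif 99 bases before the RefSeq start and lies in the first exon of the longer transcript kept in the tables. The 100 bases before Lamp1 (chr8:13159061-13159160, plus strand) hold 4 copies of CACGTG and no annotated exon. The Bnip3 sequence (chr7:138909598-138909625, minus strand) comes from a gene with changes of opposite sign in muscle and WAT.
Ctsd: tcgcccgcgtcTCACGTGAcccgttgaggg
Atg3: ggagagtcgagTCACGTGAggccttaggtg
Lamp1: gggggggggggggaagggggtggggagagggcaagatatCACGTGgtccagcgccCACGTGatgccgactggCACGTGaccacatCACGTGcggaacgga
Bnip3: cgcacgcgccgCACGTGccacacgctcc
The Atg3 sequence lies at chr16:45158746-45158775 on the plus strand, with its motif 72 bases before the start. Ctsd, with the motif, was called higher with CORT in WAT of both genotypes, whereas Atg3, with the same motif, was at 0.20 and 0.09 there. A GR element (GNACA, any 3 bases, then TGTNC) and a FOXO element (GTAAACA) were found before none of the 27 genes, against 0.44% and 3.54% of all genes, which says only that these letters are not in these windows.

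The wider pathway was followed with lists of 45 other autophagy genes and 34 other lysosome genes. In WAT the lysosome list gave 11 genes called higher and none lower with CORT in GRf/f mice (median 0.41), and 6 higher and none lower in GRmKO mice (median 0.29), where 13.4% and 8.7% of all genes were called higher. Psap, the precursor of the saposins, went from 531 to 1585 CPM in GRf/f WAT, a change of 1.58, and from 772 to 1045 CPM in GRmKO WAT, a change of 0.44 that stayed within 1.5-fold. Gusb, lysosomal β-glucuronidase, changed by 1.40 in GRf/f and 0.75 in GRmKO WAT, and Atp6v0a1, a subunit of the proton pump that acidifies lysosomes, by 1.32 and 0.92. In gastrocnemius the same list gave 1 higher and 4 lower with CORT in GRf/f mice and none higher and 8 lower in GRmKO mice, where 14.2% and 14.6% of all genes were called lower. In GRmKO gastrocnemius 8 of 9 macrophage markers were called lower as well, with a median of -1.33, and their part was not tested. Between genotypes under vehicle the list gave 11 higher and 1 lower in GRmKO gastrocnemius, where 14.7% of all genes were higher and 9.33% lower. It was led by Ctss, a protease abundant in macrophages, from 5.29 to 42.0 CPM (2.88), followed by Ctsh (1.58) and Ctsk (1.44), in the comparison in which the macrophage sum was 521.1 against 160 CPM. In liver it gave 3 higher and 3 lower with CORT in GRf/f mice, where 14.0% and 13.2% of all genes were called, and 2 higher and none lower in GRmKO mice, where 9.44% and 8.31% were.

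The other autophagy genes moved in both directions. With CORT, 4 were called higher and 2 lower in GRf/f gastrocnemius, 5 and 5 in GRmKO gastrocnemius, 5 and 5 in GRf/f liver, 2 and 2 in GRmKO liver, 8 and 7 in GRf/f WAT and 4 and 6 in GRmKO WAT. In liver 43 of the 45 could be tested, without Tsc1 and Prkaa1. The shares of all genes called higher and lower were 8.36% and 14.2%, 4.32% and 14.6%, 14.0% and 13.2%, 9.44% and 8.31%, 13.4% and 19.2%, and 8.7% and 16.4% in the same order. Ddit4 (REDD1), an inhibitor of mTORC1 known as a GR target, was lower with CORT in gastrocnemius, from 27.8 to 7.52 CPM in GRf/f and from 41.2 to 4.72 in GRmKO mice, and in WAT, with changes of -3.68 and -1.96. In liver Ddit4 was higher with CORT in GRf/f mice, from 7.31 to 11.5 CPM (0.62), and nearly level in GRmKO mice (-0.09). Depp1, a FOXO target, was lower with CORT in liver, with changes of -3.10 in GRf/f and -0.70 in GRmKO mice, and in WAT, with changes of -3.34 and -2.50. Under vehicle, GRmKO gastrocnemius had 2 of the 45 higher and 7 lower than GRf/f gastrocnemius, where 14.7% of all genes were higher and 9.33% lower. Under CORT it had 2 of the 45 higher and 14 lower, where 14.2% of all genes were higher and 13.6% lower. Foxo1, a transcription factor known to drive autophagy genes in muscle, stood at 148 CPM in GRf/f CORT and 33.4 in GRmKO CORT, a difference of -2.12. It was the second largest difference under CORT after Zkscan3, a repressor of autophagy genes, at -2.22. Both were lower in GRmKO mice under vehicle too. There Foxo1 was at 87.8 CPM in GRf/f and 37.0 in GRmKO (-1.23), and Zkscan3 at 17.95 and 1.09 CPM (-3.53).

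Levels were compared between genes only per kilobase of the kept transcript. On that scale Ctsd led the members in gastrocnemius with a median of 307 CPM per kb over the 4 libraries, followed by Sqstm1 with 299.9 and Lamp1 with 225. The ranges of Ctsd (300.2 to 323) and Sqstm1 (258 to 320.3) overlapped, and both were above that of Lamp1 (219 to 229). In liver Lamp1 was first with 293 (264 to 330.2), followed by Lamp2 with 167 and Gabarapl1 with 153, whose ranges overlapped. In WAT Ctsd was first with 928 (588 to 1273), followed by Ctsb with a range of 437 to 589, Bnip3 with 397 and Lamp1 with 388.

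Levels were compared between tissues, in CPM, for the 30 members with the same transcript in all tables. Of these, 15 were higher in every WAT library than in any library of the other tissues, 5 in every gastrocnemius library, 1 in every liver library (Atg5), and 9 in no tissue. Over the 10095 genes of the same kind the shares were 40.9% for WAT, 9.41% for gastrocnemius and 6.87% for liver. Tfeb was the clearest of those higher in muscle, between 67.2 and 75.7 CPM in gastrocnemius, against 6.95 to 9.65 in liver and 11.5 to 18.2 in WAT, so that its lowest muscle library was 3.69 times the highest library elsewhere. The others higher in muscle were Atg9a (93.8 to 144 CPM against at most 47.1), Sqstm1, Ulk1 and Rb1cc1. Ctsb led those higher in WAT, with 2074 to 2791 CPM there, against 327 to 501 in muscle and 485 to 585 in liver. Lamp2 was left out because liver carries another transcript of it, whose coding sequence differs in its last 136 bases. The 30 bases around that point are shown with the differing bases in capitals, since the isoforms have different membrane ends:
Lamp2 in gastrocnemius and WAT: acagtattctacagcCCAGGAGTGTTCGCT
Lamp2 in liver: acagtattctacagcTCAAGACTGCAGTGC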

How the data were processed

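RNA pooled from 3 mice was sequenced by the authors in 100-base pairs, with 1 library per tissue, genotype and treatment. The authors quantified reads with Salmon 1.2.1 against protein-coding transcripts of GENCODE M20 (GRCm38) and deposited estimated counts per entry, made with tximport (lengthScaledTPM) in R 3.5.0. Where entries shared a gene name they kept the one with the largest total, and each entry bears 1 transcript identifier. The authors' simulation-based calls were not used.

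From these expected counts, CPM and log2 ratios with 0.5 CPM added were computed (Python 3.11.15, pandas 2.3.3, scipy 1.17.1). The 1.5-fold threshold was applied to entries that had a value above 0 in each of a tissue's 4 libraries. Wilson intervals were used for levels and exact Clopper-Pearson intervals for ratios of rounded counts, and they cover counting error only. Alternatives were TMM factors (edgeR 4.0.16, R 4.3.3), median-of-ratios factors, 1 or 0 CPM added, another filter on low values, 2-fold, and intervals wholly past 1.5-fold. The script was tested on simulated data. Transcript features came from GENCODE M21, in which all identifiers were found, and promoters from RefSeq. The members and lists were chosen with earlier results of these data known. Values in every library were given for members past 1.5-fold in gastrocnemius and for the 5 largest CORT changes in each genotype of liver and WAT; from each other list at most 3 genes per comparison, those with the largest changes, were named.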

Additional observations from a re-analysis of the deposited data

Results flagged for a closer look

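Bnip3 changed with CORT in opposite directions in tissues of GRf/f mice, by 0.674 in gastrocnemius (172 to 274 CPM) and by -0.832 in gonadal WAT (787 to 442 CPM). With 1 library per group this difference between tissues was not tested.

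Atg14 changed with CORT in opposite directions in tissues of GRmKO mice, by 0.671 in liver (11.3 to 18.3 CPM) and by -0.632 in gonadal WAT (17.5 to 11.1 CPM). This difference was not tested either, and under TMM factors the WAT value was -0.51, short of 1.5-fold.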

How the results depend on the processing

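With 1 library per group no result has an estimate of animal-to-animal spread. Counting intervals are widest for the lowest members. Members with higher counts but changes close to 1.5-fold, such as Gabarapl1 in GRf/f liver, also have intervals that cross the threshold. Each call rests on 1 pair of libraries, and the part of cell composition was not tested. No paired analysis was possible because every group holds 1 library.

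Adding 1 or 0 CPM, no filter on low values, and a mean of at least 50 counts kept the counts of called members within 1.5 times in 12 of 12 comparisons, with Atg16l1 called lower with CORT in GRf/f gastrocnemius when 0 CPM was added. None of the 32 called changes reversed under the other scalings or the other added CPM, the alternatives under which their values were recomputed. TMM and median-of-ratios factors moved the CORT changes by 0.15 and 0.14 in GRmKO gastrocnemius and by 0.12 and 0.13 in GRmKO WAT. Under each, 28 of the 32 changes were still past 1.5-fold; Atg7 and Ctsb between genotypes in vehicle gastrocnemius and Tfeb and Atg14 in GRmKO WAT were not. TMM factors brought Ulk1 (-0.64) past 1.5-fold between genotypes in vehicle gastrocnemius, Lamp1 with CORT in WAT of both genotypes (0.60 and 0.60) and Atg12 in GRmKO WAT (0.68). Median-of-ratios factors called 5 members with CORT in GRf/f gastrocnemius instead of 3, adding Atg4a (0.60) and Lamp2 (0.60).

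At 2-fold, 1 member remained with CORT in GRf/f gastrocnemius (Nbr1), 1 between genotypes in gastrocnemius under vehicle (Atg16l1) and 0 under CORT, 0 with CORT in liver of either genotype, 0 in GRf/f WAT and 1 in GRmKO WAT (Ctsd). With the counting interval required to lie wholly past 1.5-fold, 3 members were called between genotypes in gastrocnemius under vehicle and 1 under CORT, 1 with CORT in liver of each genotype, and 3 in GRmKO WAT.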
